A study of Rattus norvegicus with 2 samples.

Results

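The table of this series lists human miRNA names in a rat experiment. The entries described here are all lines whose miRNA name begins with the human prefix hsa. They were chosen by name alone and number 749 of the 12498 named entries analysed, beside 723 with rat names, 368 with mouse names and 10658 predicted arms named by chromosome. Each entry is a mature sequence with the name of its precursor. The 749 human entries carried 746 distinct sequences and came from 728 precursor names. The name ended in 5p for 179 entries, in 3p for 176 and in neither for 394.

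A miRNA is a short RNA cut from a hairpin precursor, and each arm of the hairpin can yield a mature strand. It finds target mRNAs mainly through its seed, bases 2 to 8 from the 5′ end, so a sequence that starts a base earlier or later has another seed. Many miRNAs are shared letter for letter between mammals, while others arose in primates and have no known rat counterpart. Numbers in miRNA names were given roughly in order of discovery, so the old, widely shared miRNAs mostly have low numbers.

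Per the labels, stellate cells, the collagen-producing pericytes of the liver sinusoid, were isolated from Sprague-Dawley males and kept in primary culture for 14 days. The pressure group had 1 sample, loaded with nitrogen to 10 mmHg for 1 h and labelled activated, and the control group had 1 sample. The 2 columns of read counts are named by sequencing barcode alone, and no label or header used here ties a barcode to a sample. They were not used, so no detection, abundance or depth is given, and no entry is reported as higher or lower under pressure. Liver cell type markers could be looked up by name only.

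The human entries that were letter for letter a rat entry included miRNAs well known in liver and vessel biology. A set of 8 is printed to show that the human label then adds no sequence of its own. It holds the growth repressor let-7a, both arms of the endothelial miR-126, the smooth muscle miRNA miR-145, miR-146a of inflammatory signalling, both arms of miR-199a, known from mesenchymal and fibrotic tissue, and the epithelial miR-200a. Capitals mark the seed.
hsa-let-7a-5p: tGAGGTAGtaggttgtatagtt
hsa-miR-126-3p: tCGTACCGtgagtaataatgcg
hsa-miR-126-5p: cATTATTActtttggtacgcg
hsa-miR-145-5p: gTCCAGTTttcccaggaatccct
hsa-miR-146a-5p: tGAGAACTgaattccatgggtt
hsa-miR-199a-5p: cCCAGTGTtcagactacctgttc
hsa-miR-199a-3p: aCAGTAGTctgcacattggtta
hsa-miR-200a-3p: tAACACTGtctggtaacgatgt

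In all, 32 of the 749 human entries, or 4.27%, were identical to a rat entry. Among mouse-named entries the share was 6.52%, 24 of 368. These are counts over a fixed list of sequences and have no sampling error, and neither they nor the shares that follow were tested. Of the 32, 25 had the same name as their rat twin after the species prefix. The other 7 differed only in how the name was written, as hsa-miR-126-3p and rno-miR-126a-3p, hsa-miR-101-3p and rno-miR-101a-3p, or hsa-miR-193a-3p and rno-miR-193-3p. The 32 sequences were 21 to 23 nt long. Further members were miR-17-5p and miR-19b-3p of the proliferation-linked miR-17 cluster, miR-181a-5p, miR-181b-5p, miR-125b-5p, miR-130a-3p and miR-15b-5p. Where a human and a rat entry have the same sequence, reads cannot be divided between them by sequence. The sources used here do not say how the authors' counting treated them. A mouse-named entry was identical to 11 human entries, and for 4 of them, let-7a-5p, miR-17-5p, miR-126-3p and miR-146a-5p, the same sequence stood under human, mouse and rat names. No predicted arm was identical to a human entry.

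Most human entries had no close partner among the 723 rat-named entries, which need not hold every rat miRNA. Each entry was put in the first of 5 relations that applied. The first was identity, and the second was that either sequence lies within the other. The third was the same name with at most 2 substitutions in an ungapped alignment that may be shifted by up to 4 nt. The last were a shared stretch of at least 16 bases on the same strand, and the same on the opposite strand. The numbers were 32, 7, 25, 15 and 0. Together 79 entries, or 10.5%, had a relation and 670, or 89.5%, had none. The third relation needs the whole name to be equal, so counterparts whose names are written differently were left out of it. With near copies of the same number counted whatever the letters or arm in the name, 17 more entries had a relation, among them miR-151a-3p, miR-325, miR-374a-5p, miR-489 and miR-598. That made 96 related entries, or 12.8%. For mouse-named entries the share under the 5 relations was 18.8%, 69 of 368, to be set beside the 10.5% of human entries. The looser rule for names was not applied to mouse-named entries.

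**Figure D1:**
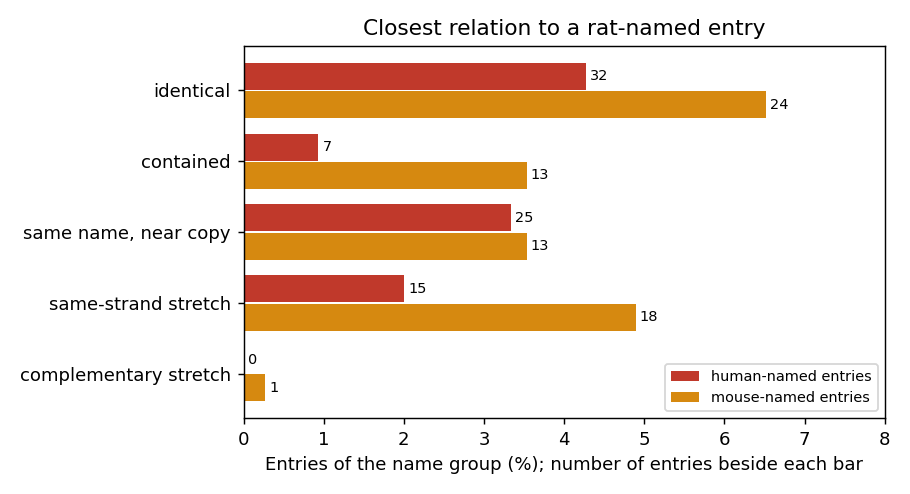
Closest relation of human-named (red) and mouse-named (orange) entries to a rat-named entry, as the percentage of each name group, with the number of entries beside each bar. Identity is the most common relation in both groups, at 32 human and 24 mouse entries, and entries with no relation, 670 human and 299 mouse, are not drawn.

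The relation to rat followed the number in the name. Among the 107 entries numbered below 500, 64 had a relation and 30 of these were identical, so 59.8% had a rat partner. From 500 to 999 it was 12 of 137, or 8.76%. Of the 505 entries numbered 1000 and above, which made up 67.4% of the human entries, only miR-1306-5p, miR-3065-3p and miR-4306 had one. The looser rule for names added 12 entries below 500, 4 from 500 to 999 and miR-1193 above. The entry miR-1306-5p was identical to the rat entry, miR-3065-3p differed from it at a base near the 3′ end, and miR-4306 is a short sequence described with the length classes. Entries with the seed of a rat entry, which a relation does not require, were 72.0% below 500 and between 3.90% and 18.2% in the ranges above, where the highest share rests on 2 of 11 entries.

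**Figure D2:**
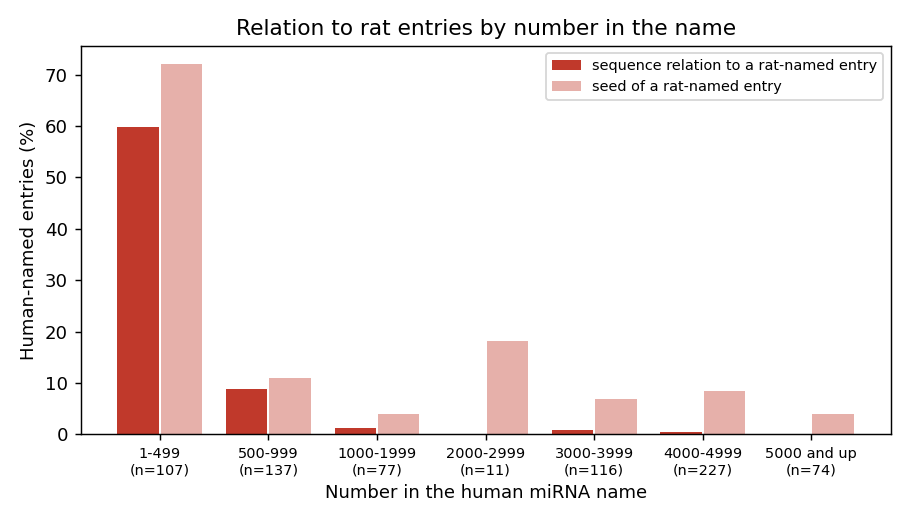
Percentage of human-named entries with a sequence relation to a rat-named entry (dark red) and with the seed of one (light red), by the number in the miRNA name, with the number of entries under each range. The bars stand at 59.8% and 72.0% below 500, and the share with a relation is at most 1.30% in each range from 1000 on.

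A shared seed was more common than a shared sequence. The seed of a rat entry stood in 127 human entries, or 16.96%, against 26.9% of mouse-named entries and 6.16% of predicted arms. Of the 79 human entries with a relation to a rat entry, 66 had a rat seed and 13 did not. Of the 670 without a relation, 61, or 9.10%, did. Some of those 61 are relatives of well known families, such as miR-23c with the seed of miR-23a-3p and miR-23b-3p, and miR-4500 with the let-7 seed. The entry miR-454-3p had the seed of the miR-130 and miR-301 entries, and miR-15a-5p that of miR-15b-5p, miR-16-5p and miR-195-5p. In others only the seed match was recorded. The entry miR-6088 had the seed of the contractile cell miRNA miR-143-3p, and miR-5195-3p had that of miR-145-5p. Whether such matches reflect kinship was not tested, and the 9.10% stands beside 6.16% of predicted arms.

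Among human entries with the same name as a rat entry, small differences in sequence were common, and many moved the seed. A rat entry of the same name existed for 59 human entries, of which 25 were identical and 34 were not. In 5 of the 34 the aligned bases had no substitution, in 14 they had 1, in 9 they had 2, and in 6 more than 2. The human entry began at the same base as the rat one in 22 pairs, further 5′ in 9 and further 3′ in 3. The seed was kept in 17 pairs and changed in 17. Among the 22 pairs with the same start, 17 kept the seed. None of the 12 shifted pairs did, which follows from counting the seed from the start of each sequence.

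Pairs with the same start and a single substitution outside the seed are printed to show what a difference that spares the seed looks like. They are miR-211-5p, a melanocyte miRNA from an intron of Trpm1, miR-376c-3p of the imprinted Dlk1-Dio3 cluster, miR-488-3p and miR-215, a relative of the hepatocyte miRNA miR-192. Capitals mark the differing base.
hsa-miR-211-5p: ttccctttgtcatccttCgcct
rno-miR-211-5p: ttccctttgtcatccttTgcct
hsa-miR-376c-3p: aacatagaggaaattCcacgt
rno-miR-376c-3p: aacatagaggaaattTcacgt
hsa-miR-488-3p: ttgaaaggctAtttcttggtc
rno-miR-488-3p: ttgaaaggctGtttcttggtc
hsa-miR-215: atgacctatgaAttgacagac
rno-miR-215: atgacctatgaTttgacagaca

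With the rat base first, the position counted from 1 at the 5′ end of the rat entry and the human base last, the differences were T18C in miR-211-5p, T16C in miR-376c-3p, G11A in miR-488-3p and T12A in miR-215. The epithelial miR-429 had 2, T17A and G18A, and kept its seed as well. Over the 28 non-identical pairs with at most 2 substitutions there were 32 substitutions, 10 of them within bases 2 to 8 of the rat entry and 22 after base 8. In miR-181a-2-3p both, C6T and A7G, lay in the seed, and in miR-711 the substitution T8A did.

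Other pairs began at different bases, so that nearly the same sequence was listed with another seed. Printed are miR-34b-5p, a p53-induced miRNA, miR-181c-3p, miR-483-3p, which lies in an intron of Igf2, miR-345-5p and miR-758-5p. Capitals mark the seed of each sequence.
hsa-miR-34b-5p: tAGGCAGTgtcattagctgattg
rno-miR-34b-5p: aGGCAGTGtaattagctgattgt
hsa-miR-181c-3p: aACCATCGaccgttgagtggac
rno-miR-181c-3p: aCCATCGAccgttgagtggacc
hsa-miR-483-3p: tCACTCCTctcctcccgtctt
rno-miR-483-3p: cACTCCTCccctcccgtcttgt
hsa-miR-345-5p: gCTGACTCctagtccagggctc
rno-miR-345-5p: tGCTGACCcctagtccagtgc
hsa-miR-758-5p: gATGGTTGaccagagagcacac
rno-miR-758-5p: tGGTTGACcagagagcacacg

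The human miR-34b-5p began 1 nt further 5′ than the rat entry and differed at A10C. The human miR-181c-3p began 1 nt further 5′ with no substitution in the 21 aligned bases, and miR-758-5p 2 nt further 5′ with none in 20. The human miR-483-3p began 1 nt further 5′ and differed at C9T. For miR-345-5p the human entry began 1 nt further 3′ and differed at C8T and T19G. Of the 10 shifted pairs with at most 2 substitutions, 7 were shifted by 1 nt. Nothing in the sources used here says to which entry reads were assigned where the listed starts differ.

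**Figure D3:**
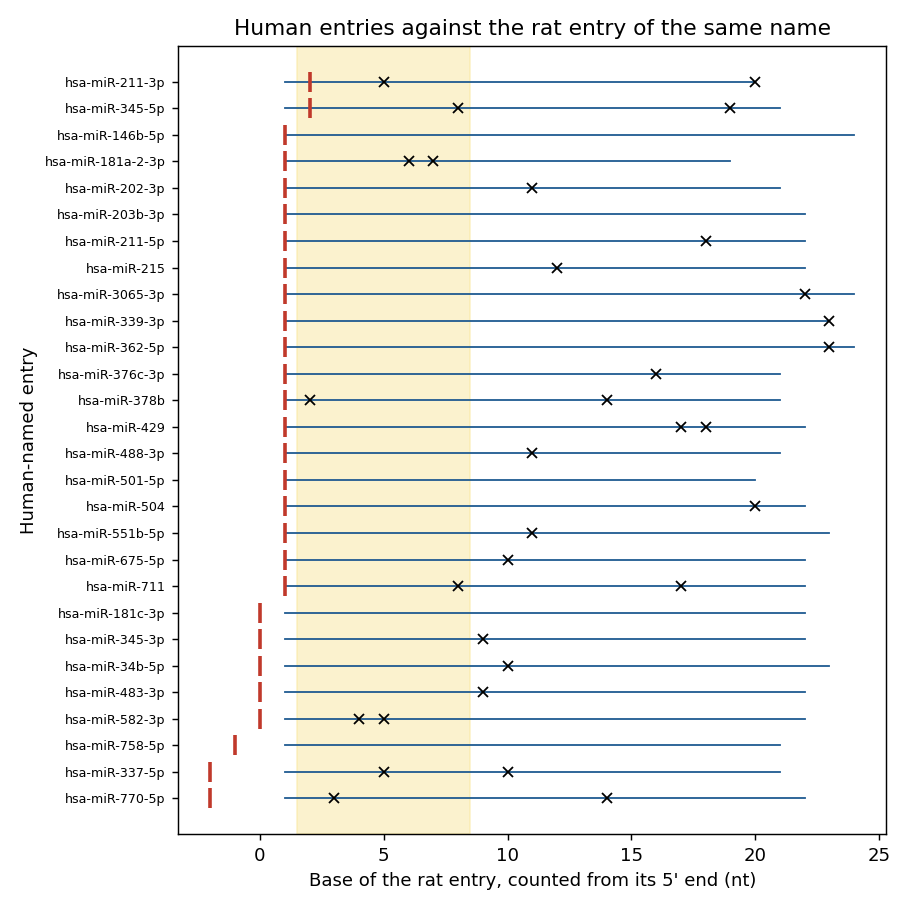
Human-named entries against the rat entry of the same name, for the 28 non-identical pairs with at most 2 substitutions. The x axis counts bases from the 5′ end of the rat entry (blue line), the red tick marks where the human entry begins, crosses mark substitutions and the yellow band is the rat seed. The tick stands at base 1 in 18 pairs and is shifted in 10, and 22 of the 32 crosses lie to the right of the seed.

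In 7 human entries the difference from a rat entry was length alone, and all 7 began at the same base as the rat sequence. They were miR-146b-5p, miR-151b, miR-203b-3p, miR-208b, miR-326, miR-448 and miR-501-5p. The widest gap was in miR-208b, a cardiac miRNA from an intron of a myosin gene, listed with 22 nt under the human name and 18 nt under the rat name. In miR-146b-5p the rat entry was the longer, with 24 nt against 22 nt. Capitals mark the shared stretch in both pairs.
hsa-miR-208b: ATAAGACGAACAAAAGGTttgt
rno-miR-208b-3p: ATAAGACGAACAAAAGGT
hsa-miR-146b-5p: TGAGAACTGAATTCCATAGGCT
rno-miR-146b-5p: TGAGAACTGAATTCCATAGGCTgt

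A further 15 human entries shared 16 to 22 bases with a rat entry whose name was not written the same. In some only the letter or arm in the name differed, as in miR-384 and rat miR-384-3p, miR-544a and miR-544-3p, or miR-628-5p and miR-628. Several others are paralogs. The human miR-106a-5p, of a cluster related to miR-17, shared 22 of its 23 bases with the rat miR-17-5p and differed in the first base alone. The human miR-424-5p shared 20 bases with the rat miR-322-5p, its rodent counterpart under another number. The human miR-18b-5p shared 19 bases with the rat miR-18a-5p, and miR-449b-5p shared 20 with miR-449a-5p. Capitals mark the shared stretch.
hsa-miR-106a-5p: aAAAGTGCTTACAGTGCAGGTAG
rno-miR-17-5p: cAAAGTGCTTACAGTGCAGGTAG
hsa-miR-424-5p: CAGCAGCAATTCATGTTTTGaa
rno-miR-322-5p: CAGCAGCAATTCATGTTTTGga

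The lettered miR-378 entries formed the largest group with a common seed. The rat miR-378a-3p lies in an intron of Ppargc1b, a regulator of mitochondrial metabolism, and the human list held 9 lettered relatives, miR-378b to miR-378j. All 9 began at the same base as rat miR-378a-3p, 7 differed from it by 1 substitution and 2 by 2 substitutions, and 7 kept its seed. With miR-422a, 8 human entries had this seed. The rat sequence is printed with its seed in capitals, followed by 8 of the 9 human relatives, in which capitals mark the bases that differ from it.
rno-miR-378a-3p: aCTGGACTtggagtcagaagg
hsa-miR-378b: actggacttggagGcagaa
hsa-miR-378c: actggacttggagtcagaagAgtgg
hsa-miR-378e: actggacttggagtcagGa
hsa-miR-378f: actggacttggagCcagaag
hsa-miR-378g: actggGcttggagtcagaag
hsa-miR-378h: actggacttggTgtcagaTgg
hsa-miR-378i: actggactAggagtcagaagg
hsa-miR-378j: actggaTttggagCcagaa

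The seed was changed in miR-378g by A6G and in miR-378j by C7T, counted in the rat entry. In 3 of the 9, miR-378b, miR-378f and miR-378j, the substitution at base 14 recurred, as T14G or T14C. The entry miR-378b was also the only 1 of the 9 with a rat entry of its own name, and it differed from that entry at G2C and T14G, the first of which lies in the seed. The 4 lettered miR-320 entries, miR-320b to miR-320e, each differed from rat miR-320-3p by 1 substitution, and miR-320e began 1 nt further 3′.

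Like 89.5% of all human entries, those of the primate-specific clusters had no sequence partner among rat entries. The human chromosome 19 cluster, a large array of miRNAs known from placenta and embryonic cells, was represented by 22 entries. None of the 22 had a relation to a rat entry. Among all human entries numbered 500 to 999, 12 of 137 had one. A rat seed, found in 16.96% of all human entries, stood in 2 of the 22, miR-520c-3p and miR-520e. Their seed is that of the embryonic stem cell miRNAs miR-302b, miR-372 and miR-373, and of rat miR-291a-3p and miR-105. Capitals mark the seed in the sequences below.
hsa-miR-302b-3p: tAAGTGCTtccatgttttagtag
hsa-miR-372: aAAGTGCTgcgacatttgagcgt
hsa-miR-373-3p: gAAGTGCTtcgattttggggtgt
hsa-miR-520c-3p: aAAGTGCTtccttttagagggt
hsa-miR-520e: aAAGTGCTtcctttttgaggg
rno-miR-291a-3p: aAAGTGCTtccactttgtgtgcc

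The cluster also held the only sequences that stood on more than 1 human entry. The sequence of miR-526a was listed for 3 entries, miR-518d-5p, miR-520c-5p and miR-526a, and that of miR-516a-3p also for miR-516b-3p. Capitals again mark the seed.
hsa-miR-526a: cTCTAGAGggaagcactttctg
hsa-miR-516a-3p: tGCTTCCTttcagagggt

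From the miR-548 family, which derives from a transposable element of primates, 4 entries were listed, miR-548an, miR-548ar-5p, miR-548ax and miR-548t-5p, and none had a rat relation or a rat seed. The 3 entries of miR-513, an X-linked primate family, had no relation either, and miR-513b had a rat seed. With so few entries, and 89.5% of all human entries without a relation, these counts do not set the families apart. No entry of miR-570 or miR-603 was among the lines analysed.

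A list of human names thought to be pieces of other RNAs was also looked up, and the sequences were not compared with those RNAs. From this list 28 entries were found, with lengths from 17 to 27 nt. Among them, miR-3960 was identical to a mouse-named entry. None of the 28 had a rat relation, but 89.5% of all human entries had none either. Most of the 28 are numbered 1000 and above, where only 3 of 505 entries had a relation. The entry miR-664a-3p had a rat seed, that of miR-664-3p. Among the 28 were miR-1246 and miR-1290, which have been described as resembling parts of the U2 small nuclear RNA. Also among them were miR-1260a, miR-1260b and miR-4454, which have been described as resembling transfer RNAs, and 5 miR-1273 entries, which lie in Alu elements. The entries miR-1246 and miR-1290, each 19 nt long, shared 12 consecutive bases, and miR-1268a was contained in miR-1268b. Capitals mark the shared stretch in each of those pairs.
hsa-miR-1246: aaTGGATTTTTGGAgcagg
hsa-miR-1290: TGGATTTTTGGAtcaggga
hsa-miR-1268a: CGGGCGTGGTGGTGGGGG
hsa-miR-1268b: CGGGCGTGGTGGTGGGGGtg

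Transfer RNAs end in the letters CCA, which are added after transcription. The letters CACCA stood at the 3′ end of miR-1260a and miR-4454, and of 0.267% of the human entries, 0.138% of the rat, 0.272% of the mouse and 0.113% of the predicted arms. They are 1 base inside the end of miR-1260b. Capitals mark them in the sequences of the first pair, and the shared stretch in miR-1260b. A match of these letters is a description and no statement on where the reads came from.
hsa-miR-1260a: atcccacctctgcCACCA
hsa-miR-4454: ggatccgagtcacggCACCA
hsa-miR-1260b: atcccaccaCTGCCACCAt

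Of names known from stellate cells and fibrosis the human list held 31 entries, of which 14 were identical to a rat entry and 23 had a relation of any kind. All 31 are numbered below 500, where 64 of 107 human entries had a relation and 30 were identical. The 14 included let-7a-5p, miR-126-3p, miR-145-5p, miR-146a-5p, miR-199a-5p, miR-199a-3p and miR-200a-3p, printed above. The 17 others held the 9 miR-378 entries and miR-34b-5p, miR-146b-5p, miR-181a-2-3p, miR-181c-3p and miR-483-3p, described above with their differences. The last 3 were the inflammation-linked miR-155-5p and both arms of miR-15a. They and miR-378f to miR-378j had no relation, the latter because neither the name nor a stretch of 16 bases was shared. The entry miR-15a-5p had a rat seed and was identical to a mouse-named entry, while miR-155-5p had no rat seed. Relations were sought among the rat-named entries alone, so having none does not show that rat lacks the miRNA. Of the liver cell type markers 5 entries were found, miR-126-3p, miR-126-5p, miR-200a-3p, miR-200b-5p and miR-429, which belong to the endothelial and epithelial lists. All but miR-429 were identical to a rat entry, and these 5 entries are numbered below 500 as well. None of these names shows that the cell type was present, since no read count was used.

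By length, 41 human entries, or 5.47%, were 17 nt or shorter and 708 were longer. Just inside and outside that limit, 34 entries had 17 nt and 40 had 18 nt. The median was 22 nt, as in the rat entries, and 80.9% were 20 to 24 nt long, against 93.6% of rat entries and 20.6% of predicted arms. None of the 41 short entries was identical to a rat entry, but only 8 of 723 rat entries were as short, so identity was hardly possible. None lay within a RefSeq rat hairpin, against 4.41% of all human entries, too low a share to set 41 entries apart. A rat seed stood in 4, or 9.76%, against 16.96% of all human entries. Of the short entries 30, or 73.2%, were numbered 4000 or above, against 40.2% of all human entries. Of the 41, 39, or 95.1%, had no arm in their name, against 394 of all 749 human entries. The shortest was miR-3676-5p with 15 nt and the longest were miR-1183 and miR-1248 with 27 nt.

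**Figure D4:**
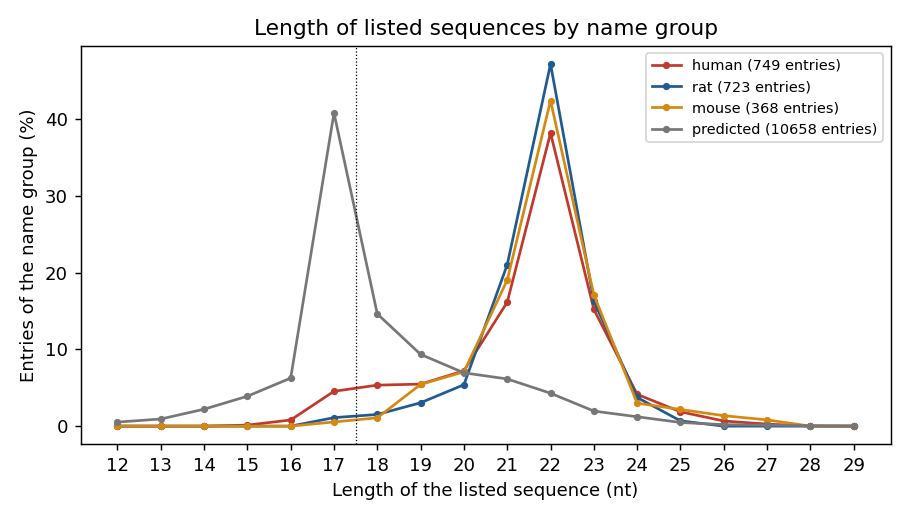
Length of the listed sequences in nt (x axis) as the percentage of each name group (y axis), with the number of entries of each group in the legend and the split at 17 nt as a dotted line. Human, mouse and rat entries peak at 22 nt, and 54.6% of predicted arms lie left of the split against 5.47% of human entries.

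A single short entry, 2.44% of the 41, had a rat partner, against 10.55% of all human entries. The stretch relations need at least 16 shared bases, so an entry of at most 17 nt must match almost whole. The 17 nt of miR-4306 matched the first 16 bases of rat miR-185-5p and differed at the last base. Capitals mark the shared stretch.
hsa-miR-4306: TGGAGAGAAAGGCAGTa
rno-miR-185-5p: TGGAGAGAAAGGCAGTtcctga

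Human entries were also richer in G and C than rat entries. Their median GC content was 54.5%, with quartiles of 45.5% and 63.6%, against 47.8% in rat, 50% in mouse and 50% in predicted arms. A GC content of 80% or more was found in 43 human entries, or 5.74%, and in 12 mouse entries, or 3.26%. It was found in 188 predicted arms, or 1.76%, and in 0 rat entries. The 32 human entries identical to a rat entry had a median of 47.8% and reached at most 72.7%.

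Sequences of rat hairpins were a second way to ask which human entries have a place in the rat genome. RefSeq hairpins of the rat assembly GRCr8 were available for 419 genes. The whole human sequence lay in at least 1 of them for 33 entries, or 4.41%, against 10.6% of mouse-named entries. Of the 33, 25 were identical to a rat entry and 8 were not. For the other 7 identical entries, among them both arms of miR-126 and of miR-199a, no hairpin on the same strand matched in this set. The 8 were 5 of the entries that differ from a rat one by length alone, namely miR-146b-5p, miR-203b-3p, miR-208b, miR-326 and miR-448, the shifted miR-181c-3p, and miR-615-3p and miR-1247-3p.

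The last pair had no related rat entry in the lines analysed, so no rat-named line carried that sequence or a close one. The sequence of miR-615-3p, a miRNA from the Hoxc cluster, lay in the Mir615 hairpin at chr7:136030412-136030433 on the plus strand of GRCr8, while the rat miR-615 entry shared at most 5 bases with it. The sequence of miR-1247-3p, known from next to Dio3, lay in Mir1247 at chr6:135105895-135105918 on the minus strand. Capitals mark the seed.
hsa-miR-615-3p: tCCGAGCCtgggtctccctctt
hsa-miR-1247-3p: cCCCGGGAacgtcgagactggagc

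On the opposite strand, 9 human entries matched a hairpin. The human miR-203b-3p matched on both sides, in the hairpin Mir3545 on its own strand and in Mir203, known from skin, as a complement, both at chr6:137020715-137020737. For let-7a-5p the complement lay in Mir3596a, and for both arms of miR-126 in the hairpin listed as Mir126a. Where such genes overlap, reads of both can be told apart only if strand was used in counting, and no source used here states this. Capitals mark the seed.
hsa-miR-203b-3p: tTGAACTGttaagaaccactgga

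Human names were also attached to predicted arms, and these links were weak in sequence. Of the 1129 predicted arms that carried a human name, 541 carried that of a listed human entry, and 301 of the 749 entries, or 40.2%, were named in this way. The longest stretch shared by the arm and the entry it names was 11 bases at the median, ranged from 7 to 16, and was exactly 11 in 376 of the 541. It was longer on the same strand for 312 arms, longer on the opposite strand for 228, and equal for 1. Only 9 of the 541 arms had the seed of the entry they name, and in those 9 the longer stretch was on the same strand. For mouse names attached in the same way, 54 of 510 arms had the seed. Names borne by many arms included miR-4758-5p with 10 arms and miR-4298 with 9.

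**Figure D5:**
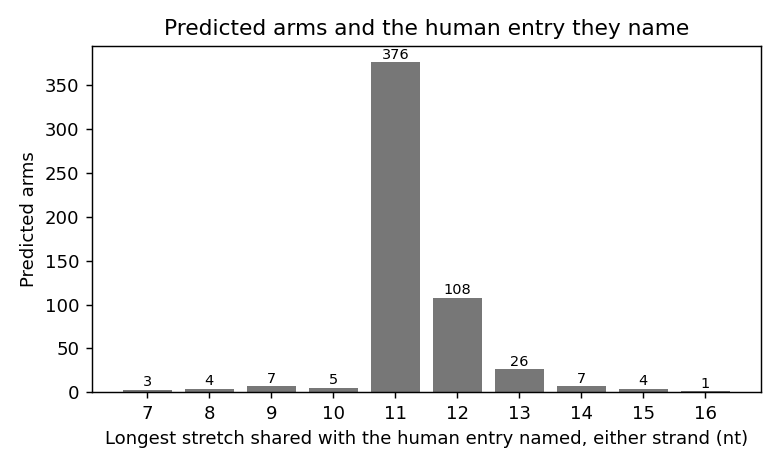
Longest run of consecutive bases, in nt, that a predicted arm shares with the human entry whose name it carries, on either strand, for 541 arms, with the number of arms above each bar. The bar at 11 nt holds 376 arms and the longest run is 16 nt.

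The 749 human entries held 668 distinct seeds. At least 1 other human entry had the same seed for 140 of them, or 18.7%, which formed 59 groups. A rat entry had the same seed in 17 of the groups and none did in 42. Of the 11 groups with at least 3 entries, 5 had no rat entry. The largest of those 5 was formed by miR-4419a, miR-4510, miR-6127, miR-6129 and miR-6133.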

How the data were processed

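Small RNA libraries were read on an Ion Proton sequencer, per the labels' protocols. Per the submitters' processing notes, FastQC was used. The sources used here do not give the aligner, counter, miRNA database or genome build. The authors deposited a table of names, precursors and sequences. Its 2 count columns carry barcodes alone and were not used. In the copy used here 5 lines were blank and were not analysed.

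Sequences were compared as DNA letters with Python 3.11.15 and pandas 2.3.3, and drawn with matplotlib 3.10.9. Alignments of entries of the same name were ungapped, with a shift of at most 4 nt, an overlap of at least 15 nt and the shift of best fit. Hairpins are from RefSeq, GRCr8. The comparison code was tested on simulated data.

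The members and lists were chosen with earlier results of these data known. The rule for named entries took identical entries in a list, those with a rat entry of the same name, repeated sequences, the extremes of length and list members. Other entries named, and the choice among those printed, were made after their values were seen. The list drawn up for primate clusters counted miR-513 with the chromosome 19 cluster, and it is given apart. Alternatives were other minimum stretches, length splits, seed lengths and identity rules. An item withheld here is not reported.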

Additional observations from a re-analysis of the deposited data

How the results depend on the processing

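No paired analysis was possible because there is 1 sample a group, with no count column tied to either. The 32 human entries identical to a rat entry became 39 with contained sequences, 45 with 1 substitution at equal length and 66 with a shared name. The 41 entries of 17 nt or shorter became 7 at a split of 16 nt and 81 at 18 nt. The share of entries with a rat seed, 16.96%, became 28.3% when only bases 2 to 7 were compared. The 33 entries found in a rat hairpin became 42 on their first 18 bases, and 63 and 82 when 1 or 2 substitutions were allowed. Same-strand stretches shared with rat were found in 64 entries at 16 bases, 75 at 14, 58 at 18 and 48 at 20. Entries with any relation, 79 at 16 bases, numbered 88 at 14 and 76 at 18, and 96 with near copies of the same number. The hairpin substitutions and the alternatives to the 79 were chosen after seeing the data. Each looser rule can only add entries. No depth can be given, since no read count was used.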
